A study of Mus musculus with 9 samples.

Results

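The genes described here are 9 noncoding RNAs of the mouse, most of which carry small RNAs inside their transcripts, out of 55401 genes in the deposited tables. They were taken by name: the microRNA (miRNA) hosts *Mir17hg*, *Mir22hg*, *Mir142hg* and *Mir155hg*, the small nucleolar RNA (snoRNA) hosts *Gas5*, *Snhg1* and *Snhg12*, and the nuclear long noncoding RNAs *Malat1* and *Neat1*. The genes were chosen by their normalized counts in these 9 libraries and the differences between groups seen there, so all their differences are given as a description and without a p-value. RNA-Seq was available from 9 libraries of splenocytes from an acute myeloid leukemia (AML) model. Bone marrow cells made leukemic by *Hoxa9* and *Meis1* (H9M) carried lentiviral color codes, and each color code marked 1 clone. A mix of such clones was injected into lethally irradiated C57Bl6/J mice, and cKit+CD11bdim cells of single color codes were sorted from the spleen. The pre-malignant group came from a single mouse, #15, and consisted of 33BC-D, of 38BC-D and of 43BC-D cells. In the de novo expanded group the same clones were taken from leukemic mice, 38BC-D from mouse #13, 43BC-D from mouse #14 and 33BC-D from mouse #17. The stably expanded group held only clone 34BC-D, from leukemic mice #13, #14 and #17. Differences from the pre-malignant group cannot be told apart from a difference between mouse #15 and the other mice, and values of the stably expanded group cannot be told apart from properties of 1 clone. The labels tie each column to a group but not to a clone or mouse, so the numbers 1 to 3 given to the libraries of each group are names only.

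A miRNA host is a long RNA from which Drosha cuts one or several hairpins, and Dicer then releases a mature miRNA of little more than 20 bases. The seed, bases 2 to 8 of the mature miRNA, pairs with messenger RNAs and directs Argonaute to silence them. A snoRNA host carries its snoRNAs in introns, and the spliced remainder is often translated for a short stretch and destroyed by nonsense-mediated decay, so that the snoRNAs, guides for the modification of ribosomal RNA, are the stable product. In blood cells miR-17-92 is known as a product of a MYC target that favours proliferation, miR-142 as a miRNA found throughout hematopoiesis, miR-155 as a product of activated lymphoid and myeloid cells, and miR-22 as a regulator of TET2. *Neat1* is the scaffold of paraspeckles, and *Malat1* is an abundant RNA of nuclear speckles. The length of the reads and the library type mean that the values below describe host transcripts, not mature miRNAs.

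The mature miRNAs of the hosts are shown first because the host level bears on which seeds a cell could make. The sequences are those of RefSeq on GRCm38.p6, written 5′ to 3′ with the seed in capitals, and 9 of 9 hairpin genes looked for were matched. In *Mir17hg*, on chromosome 14 from 115042879 to 115046727, miR-17-5p and miR-20a-5p shared the seed AAAGUGC, miR-19a-3p and miR-19b-3p shared GUGCAAA, and miR-18a-5p and miR-92a-3p each had their own.
miR-17-5p: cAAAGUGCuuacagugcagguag
miR-20a-5p: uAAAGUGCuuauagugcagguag
miR-18a-5p: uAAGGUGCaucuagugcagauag
miR-19a-3p: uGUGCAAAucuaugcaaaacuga
miR-19b-3p: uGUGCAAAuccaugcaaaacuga
miR-92a-3p: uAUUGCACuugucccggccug
The other 3 hosts carry 1 hairpin each. *Mir22hg* lies on chromosome 11 from 75461539 to 75466676, *Mir142hg* on chromosome 11 from 87755577 to 87757270, and *Mir155hg* on chromosome 16 from 84703167 to 84715245, all on the plus strand.
miR-22-3p: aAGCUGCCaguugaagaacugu
miR-142a-5p: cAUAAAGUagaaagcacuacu
miR-142a-3p: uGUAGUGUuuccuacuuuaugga
miR-155-5p: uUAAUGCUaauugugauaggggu

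**Figure D1:**
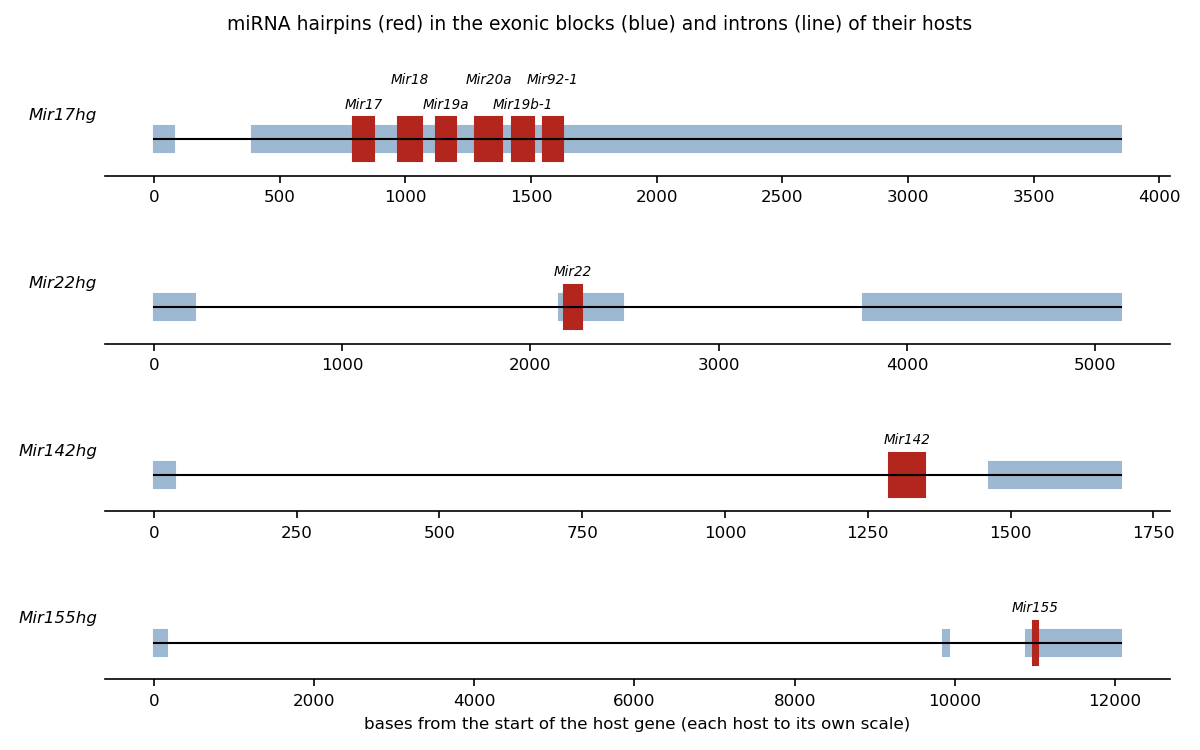
Map of the 4 miRNA hosts as the deposited annotation gives them, with exonic blocks in blue, introns as a line and miRNA hairpins in red; the horizontal axis is the distance in bases from the start of each host, each on its own scale. The 6 hairpins of *Mir17hg* lie in its second exonic block, *Mir22* and *Mir155* lie in exonic blocks, and *Mir142* lies in the intron of *Mir142hg*.

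Promoters are shown for the snoRNA hosts because many snoRNA hosts are known to start transcription in a run of pyrimidines (5′ terminal oligopyrimidine genes), a class whose translation is controlled by nutrient signalling. The windows run from 10 bases before to 20 after a RefSeq start site, with the longest run of C or T that begins within 10 bases of the start in capitals. They are chr1:161035156-161035185 for the downstream start site of *Gas5*, chr19:8723477-8723506 for *Snhg1* and chr4:132308668-132308697 for *Snhg12*, all on the plus strand of GRCm38.p6.
Gas5: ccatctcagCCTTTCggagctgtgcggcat
Snhg1: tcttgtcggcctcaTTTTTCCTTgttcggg
Snhg12: ttctcagTCCTTTCTCgcttcatccgcggt
The runs were 6, 9 and 9 bases long, searched on the transcribed strand only. The upstream start site of *Gas5* had a run of 3. A run of at least 5 was found in 12 of 20 start sites of these and other noncoding snoRNA hosts (60.0%), and in 12570 of all 32851 promoters (38.3%). Such a match describes letters in a window and says nothing of the use of a start site in these cells.

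Libraries held 10379739 to 15551196 reads on genes, and whole reads were recovered from the deposited normalized counts for at least 99.98% of values. Levels below are normalized counts, reads divided by a size factor that puts the 9 libraries on one scale. Over 10335 genes, the median correlation of a library with its own group was 0.968 to 0.974 in the pre-malignant and stably expanded groups, and 0.929, 0.939 and 0.897 in de novo expanded libraries 1 to 3, so library 3 stood apart and results that rest on it are given with and without it. *Hoxa9*, *Meis1*, *Kit*, *Itgam* and *Ptprc*, genes of the design and of the sort, had reads in every group. Of 8 B cell markers, 7 were lower in stably expanded than in pre-malignant libraries and 5 of them were called. Their summed level was 3069.6 to 3733 in pre-malignant, 1047 to 3074 in de novo expanded and 1193 to 1497 in stably expanded libraries. The summed level of 8 neutrophil granule genes was 112239 to 129726, 41561 to 284757, and 162344 to 228869 in the same order, with its highest value in de novo expanded library 3, and *Mpo* made up most of it in the mean of each group. All 8 granule genes were higher in stably expanded than in pre-malignant libraries without overlap, and 4 were called (*Ltf*, *Camp*, *Ngp* and *Cebpe*, with log2 differences of 4.58, 3.98, 3.14 and 1.66). The immediate early genes summed to 35006 to 39095, 19504 to 21508, and 11913 to 27345. Of 6 tested erythroid markers 5 were lower in each leukemic group than in the pre-malignant group, with 0 calls (medians -2.26 in de novo and -1.96 in stably expanded), and the list summed to 253 to 484, 31.6 to 200, and 32.2 to 322 in the same order of groups. Both tested platelet markers, *Itgb3* and *Itga2b*, had lower means in each leukemic group (medians -0.57 and -0.34, 0 calls), while *Ppbp* and *Gp1bb* had 0 reads throughout. The macrophage list summed to 1189 to 2548, 730 to 3344, and 2388 to 3177, and its member *Vcam1* had a log2 difference of 2.03 (standard error 0.63) in stably expanded over pre-malignant libraries, not called and with overlap. T cell markers summed to at most 58.6 in any library. The part of any of these in the values below was not tested. In such sorted bulk samples fewer cells of a type and less RNA per cell cannot be told apart.

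Compared per length, as reads scaled to exonic length and depth (RPKM), the 9 genes spanned more than 3 orders of magnitude. Exonic length is the union of all annotated isoforms, with introns included where an isoform keeps them. It was 3760 bases for *Gas5*, 2969 for *Snhg1*, 2402 for *Snhg12* and 269 for *Mir142hg*, so the order between genes depends on the annotation. *Malat1* led with a median of 877 RPKM over the 9 libraries (range 589 to 1254) and did not overlap the next. *Gas5* followed with 54.4 (34.0 to 65.2), then *Mir142hg* with 31.0 (23.7 to 45.3), *Snhg1* with 21.3 (13.6 to 23.4) and *Neat1* with 20.7 (10.8 to 36.2). The ranges of *Gas5* and *Mir142hg* overlapped, as did those of *Snhg1* and *Neat1*. All *Mir142hg* values were above all *Snhg1* values, but the gap between 23.7 and 23.4 is no more than counting error. *Snhg12* had 7.78 (5.19 to 9.76), *Mir17hg* 2.92 (1.4 to 4.06) and *Mir22hg* 0.456 (0.10 to 0.802), and the ranges of these 3 did not overlap. *Mir155hg* had a median of 0. *Malat1* alone took 0.411% to 0.875% of all reads on genes and ranked between 5 and 8 among all genes by reads.

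**Figure D2:**
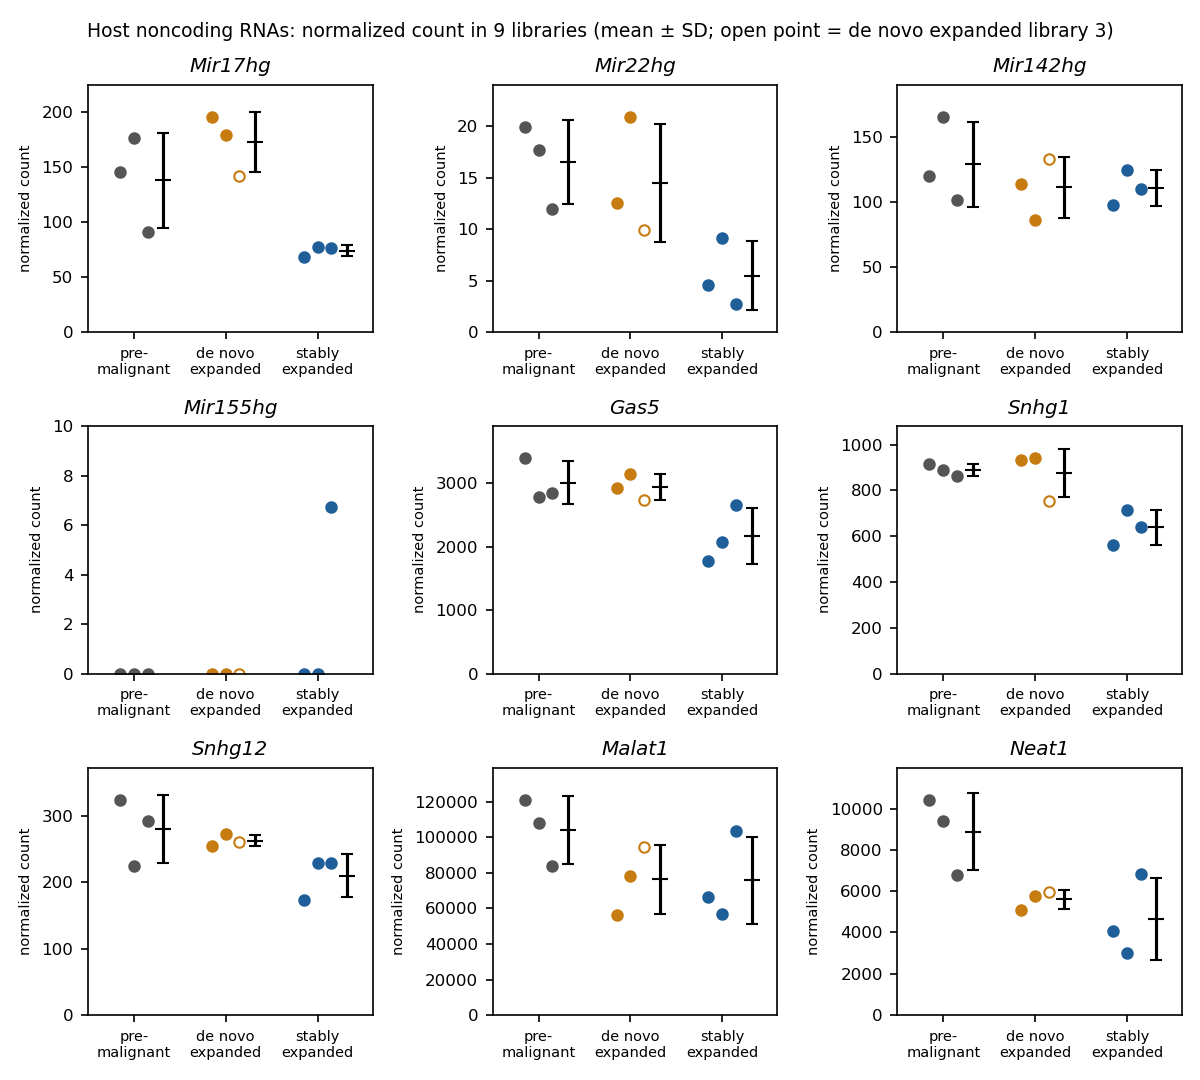
Normalized count (vertical axes, from 0, each gene on its own scale) of the 9 genes in 3 pre-malignant, 3 de novo expanded and 3 stably expanded libraries, 1 point a library, with mean ± SD beside the points except for *Mir155hg*; the open point is de novo expanded library 3. The stably expanded points of *Mir17hg* lie between 68.8 and 77.1, below all other libraries, while those of *Mir142hg* lie among the others.

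*Mir17hg* was lower in the stably expanded clone than in both other groups. Its normalized count was 146.0, 176.8 and 91.4 in pre-malignant libraries 1 to 3. It was 196.0, 179.6 and 142.5 in the de novo expanded and 68.8, 77.1 and 76.6 in the stably expanded libraries. All stably expanded libraries were below all others, whereas the de novo expanded and pre-malignant libraries overlapped. Group means were 138 ± 43.2 (SD, n = 3), 173 ± 27.4 and 74.1 ± 4.67. At 57 to 84 reads a library, counting error alone exceeds the SD of the stably expanded libraries, so nothing is read from their small scatter. The log2 difference of stably expanded from de novo expanded was -1.20 (standard error 0.21), and -1.33 without de novo expanded library 3. It was -0.84 (0.28) from pre-malignant, and de novo expanded over pre-malignant was 0.38 (0.28). With no normalization between libraries, *Mir17hg* had 3.49 ± 0.530 reads per 100 *Gas5* reads in stably expanded, 5.86 ± 0.758 in de novo expanded and 4.62 ± 1.6 in pre-malignant libraries. The stably expanded libraries did not overlap the de novo expanded ones in this ratio but overlapped the pre-malignant ones. *Gas5* itself was lower in stably expanded libraries, with log2 differences of -0.46 from de novo expanded and -0.48 from pre-malignant. The ratio therefore shows a smaller difference than the normalized count. No other gene row overlaps *Mir17hg* outside its own hairpins, and each library had between 57 and 206 reads.

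*Mir22hg*, the host of miR-22, was close to the detection limit. Reads were 19, 19 and 13 in pre-malignant, 11, 24 and 11 in de novo expanded, and 5, 10 and 2 in stably expanded libraries. On the normalized scale the stably expanded libraries (4.52, 9.18 and 2.69) were below all others, the lowest of which was at 9.92. The gap between 9.18 and 9.92 corresponds to 10 and 11 reads and is no more than counting error. The log2 difference of stably expanded from pre-malignant was -1.54 (standard error 0.60). With a mean below 10 over the 6 libraries, the gene did not enter the comparison of stably with de novo expanded. *Mir22hg* shares 206 exonic bases with *Tlcd2* on the same strand. A read there lies in both genes, and the counter in its default setting counts it for neither.

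*Mir142hg* differed little between the groups. The level was 119.8, 165.6 and 101.6 in pre-malignant, 114.0, 86.3 and 133.5 in de novo expanded, and 97.7, 124.9 and 110.1 in stably expanded libraries. All groups overlapped, with log2 differences of -0.19 (standard error 0.27), -0.19 (0.24) and 0.01 (0.24) in de novo expanded over pre-malignant, in stably expanded over pre-malignant, and between the leukemic groups. The sign of each turned when 1 library was left out. *Mir155hg* had 0 reads in 8 libraries and 5 in stably expanded library 3. Since 0 reads allow a count of up to 3, a low level of this host, which is known to be induced in activated B cells and macrophages, was not detectable at this depth in the 8 libraries.

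The rows of the small RNAs themselves held almost no reads. Inside the 9 genes, on the same strand, lie 36 annotated gene rows. Of these, 35 lie wholly in exonic bases of the host and all 35 had 0 reads in all 9 libraries. Some rows, among them the 1 in *Malat1* and the 3 in *Neat1*, have no small RNA name, and *Snord80* and *Snora16a* have more than 1 row each. They include the 6 hairpins of *Mir17hg*, 10 rows in *Gas5* such as *Snord47* and *Snord80*, 8 in *Snhg1* such as *Snord22*, and 5 in *Snhg12*, among them *Snora44* and *Snora61*. A read that lies in 2 genes is counted for neither by the counter in its default setting, so a 0 in these rows is no measure of the small RNA. The exception was *Mir142*, which lies in the intron of its host. Its 64-base row had 22, 32 and 18 reads in pre-malignant, 15, 24 and 42 in de novo expanded, and 46, 25 and 11 in stably expanded libraries. Per 100 reads of *Mir142hg* these were 17.9 ± 1.47 (SD, n = 3), 22.5 ± 6.85 and 24.8 ± 15.6. The groups overlapped, and the spread of the stably expanded libraries (13.4 to 42.6) was wider than any gap between means. *Mir142b*, which covers these 64 bases on the other strand, had 4 reads over all libraries. For *Gas5*, *Snhg1* and *Snhg12* the exonic bases of all annotated isoforms cover 91.3%, 100% and 100% of the gene, so reads from retained introns count toward the host.

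The 3 snoRNA hosts were lower in the stably expanded clone than in the other groups by nearly the same amount. *Gas5*, the host of snoRNAs of the C/D box class on chromosome 1 from 161034422 to 161038539, had 3397, 2779 and 2846 in pre-malignant libraries. The de novo expanded libraries had 2933, 3151 and 2745, and the stably expanded libraries 1774 (library 1), 2082 and 2652. Every stably expanded library was below every other library, library 3 by the smallest margin. Means were 3007 ± 339, 2943 ± 204 and 2169 ± 446 (SD, n = 3).
*Snhg1*, on chromosome 19 from 8723475 to 8726443, had 917, 891 and 863 in pre-malignant, 931, 941 and 753 in de novo expanded, and 562, 715 and 642 in stably expanded libraries. Again no stably expanded library reached the other groups. *Snhg12*, which hosts H/ACA box snoRNAs and *Snord99* on chromosome 4 from 132308623 to 132311024, had 325, 224 and 293 in pre-malignant, 255, 273 and 262 in de novo expanded, and 173, 229 and 229.7 in stably expanded libraries. Here the stably expanded libraries were below the de novo expanded ones, and pre-malignant library 2 overlapped them.
The log2 difference of stably expanded from pre-malignant was -0.48 (standard error 0.14) for *Gas5*, -0.48 (0.12) for *Snhg1* and -0.41 (0.20) for *Snhg12*. Against de novo expanded these were -0.46 (0.15), -0.45 (0.15) and -0.33 (0.17), and -0.51, -0.55 and -0.34 without de novo expanded library 3. De novo expanded over pre-malignant gave -0.01 (0.11), -0.01 (0.12) and -0.06 (0.18), with signs that turned when a library was left out. Within a library the hosts kept their proportion: *Snhg1* had 29.8 ± 2.58, 29.7 ± 2.16 and 30.1 ± 5.27 reads per 100 *Gas5* reads, and *Snhg12* 9.30 ± 1.13, 8.96 ± 0.491 and 9.80 ± 1.16, in pre-malignant, de novo and stably expanded libraries. These groups overlapped in both ratios.

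**Figure D3:**
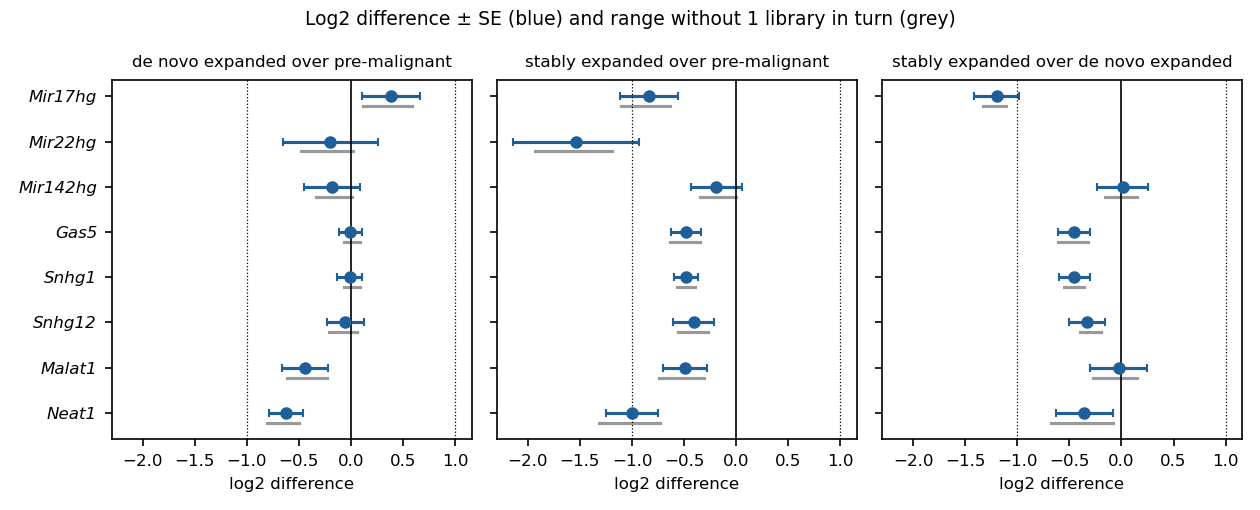
Log2 difference of normalized count (horizontal axis) with its standard error for 8 of the 9 genes in 3 comparisons, with the range after leaving out each library in turn as a grey line and dotted lines at a 2-fold difference. In both comparisons of the stably expanded clone *Gas5*, *Snhg1* and *Snhg12* lie between -0.48 and -0.33, and *Mir17hg* lies at -0.84 and -1.20.

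Other snoRNA hosts were read beside them, from lists written from general knowledge with earlier results of these libraries known. Of 18 other noncoding snoRNA hosts, 13 had a mean of at least 10 in the comparison of stably with de novo expanded, and 13 of 13 were lower in the stably expanded clone, with a median log2 difference of -0.45, where the median of all 13758 genes tested was near 0 (6928 lower, 6830 higher). None was called. Values were -0.67 (standard error 0.18) for *Snhg17*, -0.58 (0.24) for *Zfas1*, -0.54 (0.27) for *Dancr* and -0.02 (0.18) for *Snhg6*. Against pre-malignant 11 of 12 were lower, with a median of -0.28. *Zfas1*, a host of C/D box snoRNAs, was at 185 ± 51.6 against 318 ± 11.9 there (log2 difference -0.81, standard error 0.21, adjusted p = 0.0392, limma) and so passed the p-value limit but not the 2-fold limit. Without pre-malignant or stably expanded libraries in turn and under the other settings its adjusted p ranged from 0.0068 to 0.119. De novo expanded over pre-malignant was mixed, with 8 of 13 higher and a median of 0.10. The summed level of the listed genes was 2508 to 2924 in pre-malignant, 2474 to 3119 in de novo expanded and 1875 to 2282 in stably expanded libraries, without overlap of the last with either other group.
In both comparisons of the stably expanded clone the protein-coding snoRNA hosts had medians closer to 0. Of 16 genes, which include translation factors such as *Eef2* and nucleolar proteins such as *Ncl*, the stably expanded level was above the pre-malignant one in 11 and below it in 5 (median 0.06), and above the de novo expanded one in 4 and below it in 12 (median -0.11). In de novo expanded over pre-malignant 14 of 16 were higher (median 0.20). None of the 16 was called in any comparison. Of 16 proteins of snoRNA particles and their assembly, 14 exceeded their pre-malignant level in de novo expanded (median 0.35) and 10 in stably expanded libraries (median 0.17), and 14 of 16 were lower in stably than in de novo expanded libraries (median -0.15), again with 0 calls. Of 17 factors of nonsense-mediated decay, 10 and 12 were higher in the same comparisons, with medians of 0.07 and 0.12. *Magoh*, a subunit of the exon junction complex, was at 1070 ± 138 in stably expanded against 730 ± 52.6 in pre-malignant libraries. Its log2 difference was 0.55 (standard error 0.12, adjusted p = 0.0242, limma), short of 2-fold.

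**Figure D4:**
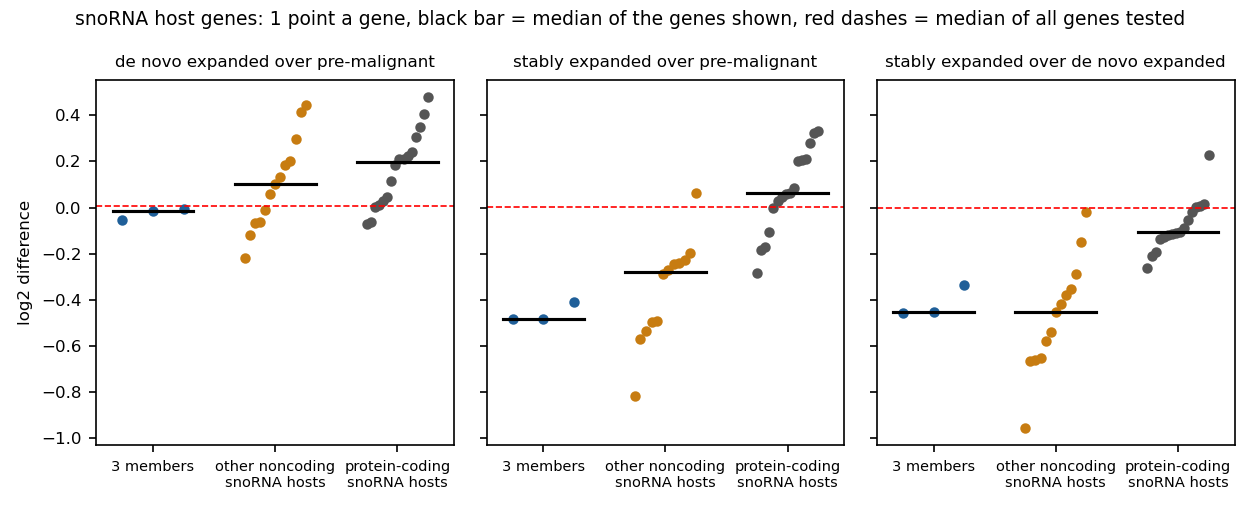
Log2 difference (vertical axis) of *Gas5*, *Snhg1* and *Snhg12*, of the other noncoding snoRNA hosts and of protein-coding snoRNA hosts in 3 comparisons, 1 point a gene, with the median of the genes shown as a black bar and the median of all genes tested as red dashes. In the comparison of stably with de novo expanded all 13 other noncoding hosts lie below 0, with a median of -0.45, whereas the median of the coding hosts is -0.11.

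*Neat1* was lower in both leukemic groups than in the pre-malignant group, and *Malat1* less so. These genes are neighbours on the minus strand of chromosome 19, *Malat1* from 5795690 to 5802672 and *Neat1* from 5824708 to 5845478, with 22035 bases between them. *Neat1* had 10422, 9397 and 6792 in pre-malignant, 5080.4, 5773 and 5949 in de novo expanded, and 4061, 2999 and 6843 in stably expanded libraries. All de novo expanded libraries were below all pre-malignant ones, while stably expanded library 3 lay just above pre-malignant library 3. The log2 difference was -0.62 (standard error 0.16) for de novo expanded and -0.998 (0.25) for stably expanded over pre-malignant. Without de novo expanded library 3 the first was -0.67. Without 1 library in turn the first ranged from -0.80 to -0.50 and the second from -1.32 to -0.73. The -1.32 was reached without stably expanded library 3, the one that overlapped the pre-malignant libraries. The leukemic groups differed by -0.36 (0.27) from each other and overlapped.
*Malat1* had 121206, 107958 and 83720.0 in pre-malignant, 56179, 78534 and 94679 in de novo expanded, and 66643, 57049 and 103715 in stably expanded libraries. All groups overlapped. The log2 difference was -0.44 (standard error 0.22) for de novo expanded and -0.49 (0.21) for stably expanded over pre-malignant, and -0.03 (0.27) between the leukemic groups, where the sign turned when a library was left out.
The ratio of these RNAs within a library needs no normalization between libraries. *Neat1* had 8.60, 8.70 and 8.11 reads per 100 *Malat1* reads in pre-malignant, 9.04, 7.35 and 6.28 in de novo expanded, and 6.09, 5.26 and 6.60 in stably expanded libraries. All stably expanded libraries were below all pre-malignant ones, and the de novo expanded libraries overlapped both groups. Stably expanded libraries 1 and 2 were also below all de novo expanded ones. The means were 8.47 ± 0.316, 7.56 ± 1.39 and 5.98 ± 0.677 (SD, n = 3). *Neat1* and *Malat1* correlated over the 9 libraries with a Pearson r of 0.89 on the log2 scale, given as a description of libraries that share their groups. Of 10 immediate early genes, 10 were also lower in each leukemic group than in the pre-malignant group, with medians of -1.02 and -1.08. In stably expanded libraries 4 of these genes were called (*Atf3*, *Fos*, *Zfp36* and *Junb*). Their part in the level of *Neat1* was not tested. Of 17 paraspeckle and nuclear speckle proteins, 9 exceeded their pre-malignant level in the de novo expanded clones and 6 in the stably expanded clone (medians 0.02 and -0.01) and none was called. *Hnrnpk* passed the p-value limit alone (log2 difference 0.47, standard error 0.13, adjusted p = 0.0477, limma).

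**Figure D5:**
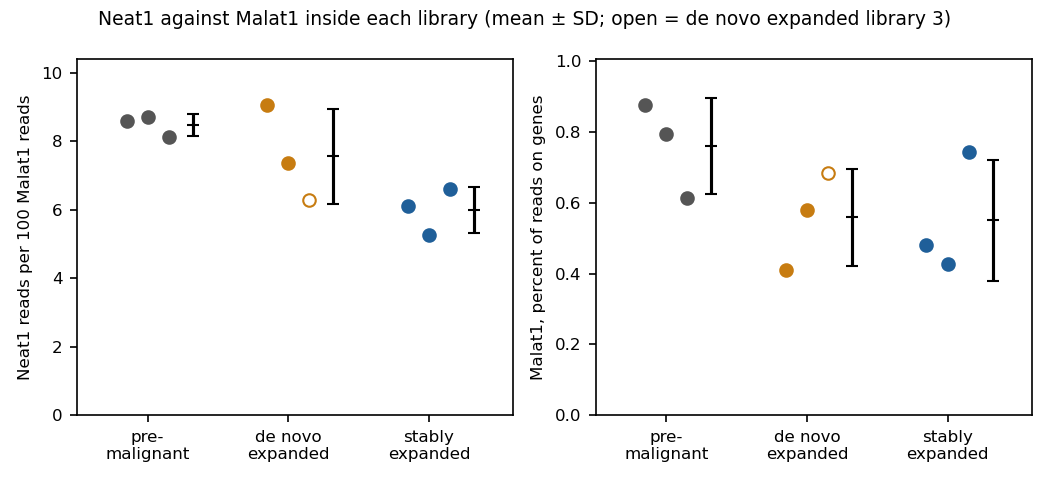
Left, *Neat1* reads per 100 *Malat1* reads; right, *Malat1* as a percent of reads on genes; 1 point a library with mean ± SD, axes from 0, and the open point is de novo expanded library 3. On the left the stably expanded libraries (5.26 to 6.60) lie below the pre-malignant ones (8.11 to 8.70); on the right the groups overlap.

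In the test over all genes, calls required both an adjusted p-value below 0.05 and a difference of 2-fold or more. Of the 9 host RNAs, 8 had a mean of at least 10 in the comparisons with pre-malignant and 7 in that of the leukemic groups, and 0 were called in each of the 3 comparisons, where 0.0%, 2.75% and 0.00727% of all genes tested were called. *Neat1* and *Snhg1* passed the p-value limit alone in stably expanded over pre-malignant libraries, as did 7.95% of all genes. *Neat1*, just short of the 2-fold limit, was called after quantile normalization, without pre-malignant library 3 and without stably expanded library 3. It no longer passed the p-value limit with edgeR, with DESeq2, in 1 fit of 9 libraries, or without pre-malignant library 1 or 2 or stably expanded library 1 or 2. Without de novo expanded library 3, *Neat1* also passed the p-value limit alone in de novo expanded over pre-malignant libraries, as did 4.37% of all genes. *Mir17hg* was called in stably over de novo expanded with DESeq2 and without de novo expanded library 3, where 3.71% of all genes were called. Groups did not overlap, in the lower direction, for 1 tested host RNA in de novo expanded over pre-malignant (8.5% of all genes), 4 in stably expanded over pre-malignant (14.6%) and 4 in stably over de novo expanded (4.95%). As these contrasts were known when the genes were chosen, nothing is read from these shares.

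Genes that act with or under the hosts were read from the same test. Of 20 proteins of miRNA processing and silencing, 19 were tested, and 12 were higher in stably expanded than in pre-malignant libraries (median 0.09). *Lin28a*, which blocks the processing of let-7 precursors, was at 620 ± 178 in stably expanded against 251 ± 55.5 in pre-malignant libraries (SD, n = 3). Its log2 difference was 1.29 (standard error 0.22, adjusted p = 0.00881, limma). It was called in 13 of 14 alternatives, with adjusted p between 1.17e-06 and 0.222. Against de novo expanded libraries its difference of 1.26 (0.58) was not called (adjusted p = 0.891), and without de novo expanded library 3 it was 1.94 and called (adjusted p = 0.00765). Of 8 targets that textbooks give for miR-17-92, 5 exceeded their pre-malignant level in the stably expanded clone (median 0.13), and 1 exceeded its de novo expanded level (median -0.10), with 0 calls.
Of 8 textbook targets of miR-155, 5 were higher in stably expanded libraries than in pre-malignant ones and *Fos* and *Socs1* were called lower. In this comparison 2.75% of all genes tested were called. The host *Mir155hg* had 0 reads in all libraries but stably expanded library 3, and mature miRNAs were not measured. *Fos*, a subunit of AP-1, is also on the list of immediate early genes. It was at 3036 ± 1616 in stably expanded against 7470 ± 1141 in pre-malignant libraries (log2 difference -1.49, standard error 0.37, adjusted p = 0.0354, limma). Its adjusted p over 14 alternatives ranged from 0.00023 to 0.132. *Socs1*, an inhibitor of cytokine signalling, was at 46.5 ± 8.54 against 96.6 ± 17.5 (-1.04, 0.28, adjusted p = 0.0479, limma). The call was kept in only 3 of 14 alternatives and lost without any 1 of the 6 libraries. Of 9 textbook targets of miR-142, 6 were higher. *Il6st*, the signalling chain of the IL-6 receptor family, was called lower, at 497 ± 208 against 1231 ± 244 (-1.37, 0.25, adjusted p = 0.0116, limma, range over the alternatives 2.5e-06 to 0.279). That call was lost without pre-malignant library 2 and in 1 fit of all 9 libraries. Of 4 tested textbook targets of miR-22, *Tet2* was lower at 3216 ± 460 against 4638 ± 219 (-0.54, 0.11, adjusted p = 0.0182), short of 2-fold.
No gene of the companion lists was called in de novo expanded over pre-malignant or in stably over de novo expanded libraries, where 0 and 1 of all genes were called. Without de novo expanded library 3, *Fos* (log2 difference -1.05, adjusted p = 0.00694) and the long noncoding RNA *Pvt1* (1.53, adjusted p = 0.0352) were called in the first. *Pvt1* was at -0.78 (standard error 1.73) with that library, in the other direction. *Il6st* (-1.47, adjusted p = 0.0165) joined *Lin28a* in the second. Of 13 tested transcription factors known at these host genes, *Runx1*, a regulator of blood formation, was lower in stably expanded libraries at 2334 ± 247 against 3776 ± 301 (-0.70, 0.10, adjusted p = 0.00583), and *Fosb* at 3323 ± 1672 against 6116 ± 445 (-0.996, 0.26, adjusted p = 0.0452), both short of 2-fold. Of 26 other miRNA hosts, 17 were tested. *Srebf2*, the host of miR-33, was higher (0.63, 0.10, adjusted p = 0.0075), as was *Smc4*, the host of miR-15b (0.39, 0.09, adjusted p = 0.0231), and *Evl*, the host of miR-342, lower (-0.53, 0.13, adjusted p = 0.0325) in stably expanded than in pre-malignant libraries, short of 2-fold.

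The genes whose pattern over the 9 libraries was most like that of a host are named by Pearson r of log2(normalized count + 1) among genes with a mean of at least 50. For *Mir17hg* they were *Akr1b3*, *Tbcd* and *Ankle1* (0.94 each), and *Snhg1* reached 0.84. For *Gas5* they were *Osbpl5* (0.98), *Vav2* and *Gm37274* (0.96 each), and for *Snhg1* *Ifnar1*, *Lmbr1l* (0.97 each) and *Mdc1* (0.96). For *Snhg12* they were *Rhbdd3*, *Slc25a45* (0.95 each) and *4632415L05Rik* (0.92). The snoRNA hosts correlated with each other at 0.88 (*Gas5* and *Snhg12*), 0.85 (*Gas5* and *Snhg1*) and 0.77 (*Snhg1* and *Snhg12*), and *Snhg12* ranked *Gas5* at 11 among 10334 genes. For *Neat1* they were *Gramd1a* (0.99), *Arid4b* (0.98) and *Zup1* (0.96), and for *Malat1* *Pnisr*, *Dlgap4* and *Ccdc171* (0.97 each). *Mir142hg* followed *Pgghg* (0.97) and *Gm42986* (0.91) and correlated with no other host above 0.34. For *Mir22hg*, with few reads, they were *Gm45757*, *Gm37488* and *Dcp1b* (0.96 each). With 9 libraries and 10334 genes compared, high values arise readily, and they share groups and depth.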

How the data were processed

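RNA was prepared with a stranded total RNA kit. According to the submitters' processing notes and the paper, the authors used bcl2fastq, nf-core/rnaseq with Trim Galore 0.6.4, STAR 2.6.1d and featureCounts 1.6.4 with the GRCm38.p6 genome and GENCODE M25 genes, and DESeq2. The authors deposited 3 tables, 1 per pair of groups, with normalized counts, a signal equal to counts per gene divided by the DESeq2 size factors of 6 libraries. Per the file headers, the deposited log2 fold changes, p-values, standard errors and score (Wald statistic) are the authors' comparison and were not used. Dividing by the step of each library gave whole reads (within 0.05 reads) for at least 99.98% of values, with 10379739 to 15551196 reads per library. Levels were computed from these reads with size factors over 9 libraries, and differences from each table's own values.

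The study's count model could not be the main test of normalized values. Therefore limma 3.58.1 (R 4.3.3, empirical Bayes trend, two-sided) was run after adding a pseudocount of 1 to the normalized count and taking log2, for genes averaging 10 or more, with Benjamini-Hochberg adjustment over all of them. Log2 differences are on that scale and understate the change of low genes. Replicates are mice or clones as labelled, and p-values measure the spread between these libraries. On simulated data with 200 genes changed 4-fold, 158, 177 and 157 were recovered with 7, 9 and 13 false calls, for the comparisons of de novo expanded (13886 genes) and stably expanded (13686) with pre-malignant and of the leukemic groups (13479). Alternatives were pseudocounts of 0.1 and 5, no filter, a mean of at least 50, quantile normalization, edgeR 4.0.16 (quasi-likelihood, TMM) and DESeq2 1.42.0 on recovered reads, 1 fit of 9 libraries, no fold limit, and leaving out each library. The 9 genes and all 21 lists were chosen with earlier results of these data known. Named are all 9 genes, their small RNA rows, called genes of 13 companion lists (at most 4 a list), and the 3 genes most correlated with each. List genes that passed the p-value limit alone, the examples of snoRNA hosts and *Pvt1* were named after their values were seen. Of 182 distinct list genes 180 were in the tables, 4 by an older name. Intervals and floors cover counting error only. Sequences are from RefSeq on the files' build, and the genome provided, of another build, was not used. An item withheld for evaluation is not reported here.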

Additional observations from a re-analysis of the deposited data

Results flagged for a closer look

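*Mir17hg* lay on opposite sides of the pre-malignant mean of 138 in the leukemic groups: all 3 de novo expanded libraries were above it, between 142.5 and 196, and all 3 stably expanded libraries below it, between 68.8 and 77.1. The de novo expanded libraries overlapped the pre-malignant ones (91.4 to 176.8), and their log2 difference of 0.38 (standard error 0.28) was not called. The log2 difference of stably from de novo expanded was -1.20. Both groups are set against the same pre-malignant libraries, and the difference was not tested, because the gene was chosen with its values known.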

How the results depend on the processing

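Of 23 log2 differences of the host RNAs, none moved by as much as the SD within groups under an alternative that left out no library. Leaving out 1 of 3 libraries of a group cannot move a difference that far, so nothing is read from this limit there. Of the 23, 15 kept their sign in all alternatives. The sign of the other 8, all between -0.20 and 0.01, changed under at least 1 alternative: de novo expanded over pre-malignant for *Mir22hg*, *Mir142hg*, *Gas5*, *Snhg1* and *Snhg12*, stably expanded over pre-malignant for *Mir142hg*, and stably over de novo expanded for *Mir142hg* and *Malat1*.
Counts of calls depended more on the setting. De novo expanded over pre-malignant gave 0 calls over all genes (1597 genes at an unadjusted p under 0.05), 5 with no filter, 62 with DESeq2, 5 in 1 fit of 9 libraries, and 0 to 215 without 1 library, the 215 without de novo expanded library 3. Stably expanded over pre-malignant gave 384, 9 in 1 fit of 9 libraries, 1110 with no fold limit, and 205 to 458 without 1 library (243, 205 and 218 without pre-malignant library 1, 2 or 3 and 207 without stably expanded library 1). Stably over de novo expanded gave 1, 2 with no filter, 32 with DESeq2, 2 in 1 fit of 9 libraries, and 0 to 511 without 1 library: 511 without de novo expanded library 3, 2 without library 1, and 0 without any 1 stably expanded library.
Of the host RNAs, 0 were called in each comparison. In stably expanded over pre-malignant 1 was called with quantile normalization, 2 with no fold limit and 0 to 1 without 1 library. In stably over de novo expanded 1 was called with DESeq2 and 0 to 1 without 1 library. Genes of the companion lists numbered 0, 4 and 0 in the 3 comparisons. In de novo expanded over pre-malignant there was 1 with DESeq2 and 0 to 2 without 1 library. In stably expanded over pre-malignant there were 0 in 1 fit of 9 libraries, 16 with no fold limit and 1 to 6 without 1 library (6 without stably expanded library 3, 1 without pre-malignant library 2 and 2 without pre-malignant library 1 or 3 or stably expanded library 1), and in stably over de novo expanded 0 to 2 without 1 library. The cause of these shifts was not tested. With no filter the median of all genes moved to -0.18 and -0.31 in the comparisons with pre-malignant. No paired analysis was possible because the columns carry no clone or mouse. Low reads limit *Mir22hg* and *Mir155hg*.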
